A study of Homo sapiens with 11 samples.

Results

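HEK293T cells descend from human embryonic kidney and express large T antigen of SV40, a viral protein that binds the retinoblastoma protein. The libraries described here are those of HEK293T cells given the vehicle DMSO alone, and they were chosen by the treatment in their labels. They are 3 of the 11 libraries in the series, in which the other groups received the compound A8 at 10 µM, ISRIB, or A8 with ISRIB, and they serve there as the untreated state. Exposure lasted 8 h by the titles of the samples but 4 h by the protocol, a difference that could not be settled. The growth protocol names HEK293 and the sample labels HEK293T. The design text calls the replicates biological, and all come from 1 established line. The spread between them is therefore that of replicates of the line and not of different donors.

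A cell line can be described by which genes it transcribes as well as by how much. The series title concerns RIG-I, a cytosolic sensor of viral RNA, and the integrated stress response, in which kinases phosphorylate the translation factor eIF2 and the transcription factor ATF4 is then translated. The untreated levels of these pathways, of other stress programmes, of innate sensing and of lineage genes are given below. No group is compared with another, and no test of a difference was made.

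The 3 libraries held 34832355, 34864783 and 34707001 counts over 27671 gene symbols. Of these symbols, 8204 had 0 counts in all 3 libraries, and a count of 0 allows up to 0.0866, 0.0855 and 0.0865 counts per 1000000 (CPM) in replicates 1, 2 and 3, taken as 3 counts and covering counting error only. CPM here are counts scaled by library size with TMM factors. Levels of different genes are compared as TPM, in which counts are divided by the length of the gene's longest annotated transcript and then scaled to the same total. A gene is called on at 1 CPM or more in each library, off at 3 counts or fewer in each, and low otherwise. By that rule 46.4% of all symbols were on, 15.6% were low and 38% were off, and among 18431 protein-coding genes 62.8% were on, 13.7% were low and 23.5% were off.

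The 12852 genes that were on held 99.8% of the counts. The median gene that was on stood at 23.6 CPM, or 13.6 TPM, and the 99th percentile at 816 TPM. There were 8690 genes at 10 CPM or more in each library, 1965 at 100 CPM or more, and 85 at 1000 CPM or more. The counts were held by few genes: 90.7 ± 7.5 genes (SD, n = 3) made up 25% of a library, 653 ± 15 made up 50% and 5042 ± 45 made up 90%. Long non-coding RNA genes took 1.65 ± 0.041% of the counts, and 515 of 3179 of them were on. Libraries were selected for poly(A) tails, and RNAs that mostly lack such tails had small shares: microRNA genes 0.0102%, small nucleolar RNA genes 0.00814%, and the 70 histone genes of the replication type 0.00834%.

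Transcripts of the mitochondrial genome led the table. The mitochondrial genome encodes subunits of the respiratory chain and of ATP synthase, and its messenger RNAs carry short poly(A) tails. COX2, a subunit of cytochrome c oxidase, was highest per length at 37711, 33991 and 40999 TPM in replicates 1, 2 and 3. COX3 followed at 31578, 30598 and 34281 TPM, and ATP6, a subunit of ATP synthase, stood at 25365, 22423 and 30052 TPM. COX1 took the most counts of any gene, at 476975, 486568 and 691067. Of the 25 highest genes, 12 were mitochondrial in counts and 13 per length, and 20 genes were in both sets of 25. The 15 mitochondrial genes of messenger and ribosomal RNA together held 9.29%, 8.50% and 11.2% of the counts. Replicate 3 was the highest library for 15 of these 15 genes, and replicate 2 was the lowest for 13 of them. Over the 14428 genes with at least 10 counts in each library, 5326 were highest in replicate 3.

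**Figure D1:**
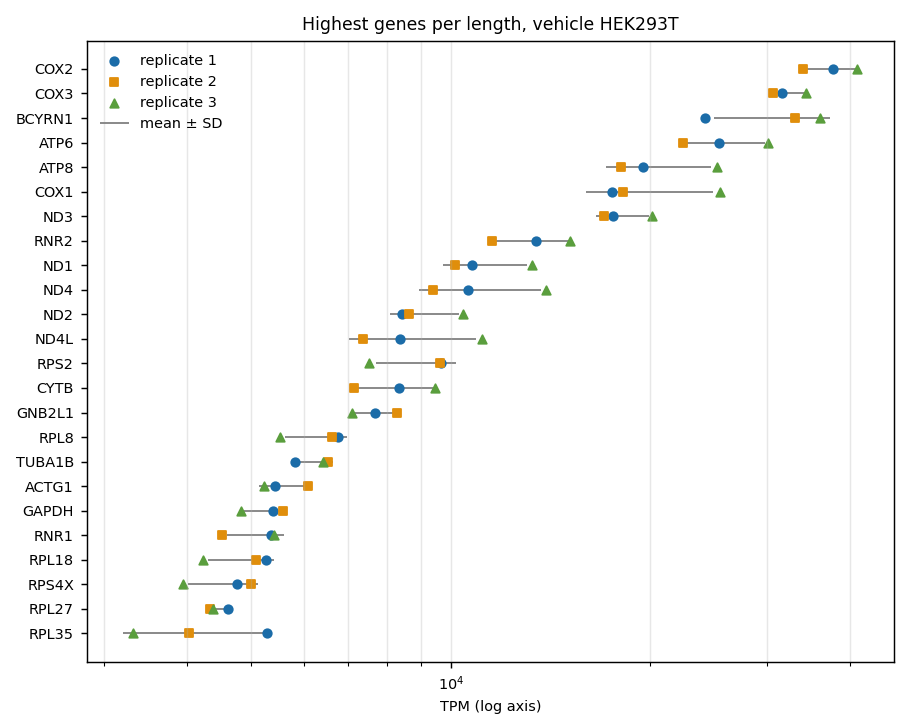
TPM (log axis) of 24 of the 25 genes with the highest mean TPM in vehicle HEK293T cells, with a point for each of the 3 libraries and a line for the mean ± SD. Mitochondrial genes take 13 of the places, and replicate 3 lies above the other libraries for the 13 of them and below them for RPS2, RPL8, RPL18, RPS4X and RPL35.

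Among protein-coding genes of the nucleus, RPS2, GNB2L1 and RPL8, all of the ribosome or bound to it, were the highest per length. RPS2, a protein of the small ribosomal subunit, was at 9677, 9627 and 7527 TPM. GNB2L1, which encodes the ribosome-bound scaffold RACK1, was at 7670, 8283 and 7103 TPM, and RPL8 of the large subunit was at 6754, 6606 and 5515 TPM. Replicate 3 was the lowest library for all of these. All 77 named cytosolic ribosomal protein genes were on, from RPS28 at 3.10 TPM to RPS2 at 8944 TPM, with a median of 815 TPM. RPS28 had 84, 78 and 54 counts. The 2324, 2286 and 2022 counts of RPS29, at 17.9 TPM, were divided by a longest transcript of 7062 bases. The range depends on the transcript length used and on how the counting assigned reads, which is not stated. It may not be the range of the messages. Together with a second copy of 1 of them in the table, the 77 genes held 7.22%, 6.87% and 5.83% of the counts, and 76 of the 78 were lowest in replicate 3. Replicate 3 was the lowest library for 37.2% of all 14428 genes with at least 10 counts in each library and for 63.3% of the 2732 of these with the shortest transcripts, up to 1915 bases, the class that held 56 of the ribosomal protein genes. The elongation factor EEF2, which moves the ribosome along the message, had 213501, 213227 and 208653 counts and a level of 3818 ± 68 TPM. EEF1A1, which delivers tRNA to the ribosome, was lower at 950 ± 83 TPM. EEF1A1 has many processed copies in the genome, and how reads shared between copies were counted is not stated.

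The cytoskeleton and glycolysis supplied most of the other leading genes. The alpha-tubulin TUBA1B was at 5811, 6524 and 6421 TPM, and the cytoplasmic gamma-actin ACTG1 at 5437, 6092 and 5230 TPM, above ACTB at 2530, 2931 and 2634 TPM. The actin ranges did not overlap. Of 16 cytoskeletal genes 15 were on, and the exception was TMSB4X, a thymosin that binds actin monomers, with 32, 38 and 14 counts. Its relative TMSB10 had 9655, 8527 and 7415 counts. All 16 glycolytic genes were on and took 1.56 ± 0.070% of the counts, led by GAPDH at 5396, 5590 and 4831 TPM, the aldolase ALDOA at 2492 ± 143 TPM and enolase ENO1 at 1493 ± 100 TPM. For lactate dehydrogenase, LDHA was at 1341 ± 69 TPM and LDHB at 1042 ± 50 TPM. Hexokinase was mostly HK1, at 74.1 ± 4.7 TPM, with HK2 at 11.7 ± 1.3 TPM.

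BCYRN1, a 200-base non-coding RNA of the Alu family of repeats, ranked 3 per length at 24158, 33066 and 36022 TPM. Alu repeats are spread over the genome, so reads of other Alu copies and of BCYRN1 may not be told apart by the deposited counts. The nuclear long non-coding RNAs MALAT1, at 3.49 ± 0.72 TPM, and NEAT1, at 1.19 ± 0.097 TPM, were on but low per length.

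All 22 proliferation genes were on. The replication helicase subunit MCM7 was at 553 ± 29 TPM, the mitotic kinase PLK1 at 524 ± 24 TPM and the replication clamp PCNA at 236 ± 15 TPM. MKI67, the source of the Ki-67 antigen of cycling cells, had 17824, 17667 and 20056 counts. CDKN2A, which encodes the inhibitor p16 and, in another frame, ARF, was high with 25540, 25385 and 25282 counts and 1129 ± 11 TPM, above CDK4, the kinase that p16 binds, at 379 ± 19 TPM. CDKN2B, the neighbouring inhibitor gene, had 178, 135 and 173 counts. Large T antigen binds and inactivates the retinoblastoma protein, the protein downstream of p16, and RB1 itself was on at 23.2 ± 3.2 TPM. Counts per gene do not separate the messages of p16 and ARF, and what set the CDKN2A level was not tested.

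Of the 148 genes in the stress lists, 119 (80.4%) were on, 16 low and 13 off, beside 62.8% of protein-coding genes on. The integrated stress response begins with 4 eIF2 kinases, which sense haem and mitochondrial stress (EIF2AK1), double-stranded RNA (EIF2AK2, or PKR), unfolded protein in the endoplasmic reticulum (EIF2AK3, or PERK) and uncharged tRNA (EIF2AK4, or GCN2). All were on. EIF2AK1 was highest, with 5632, 5957 and 6002 counts and 74.9 ± 3.1 TPM. EIF2AK4 followed at 26.5 ± 1.2 TPM, EIF2AK3 at 5.58 ± 0.85 TPM and EIF2AK2 at 3.46 ± 0.28 TPM. The order of the 4 kinases per length was the same in each library. In counts, however, EIF2AK2 stood above EIF2AK3 in each, at 560, 645 and 624 against 391, 520 and 451. Their order per length rests on longest transcripts of 10042 and 4646 bases. Of the phosphatase subunits that reverse the phosphorylation, PPP1R15A (GADD34) had 1351, 1251 and 1156 counts and PPP1R15B (CReP) 1049, 1135 and 1334.

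ATF4 messenger RNA was abundant in the untreated cells, at 31434, 30066 and 26863 counts and 832 ± 66 TPM. Since ATF4 is controlled at translation, its message does not give the level of the protein. Of 18 factors and targets, 15 were on, 3 low and none off. Genes of amino acid supply led: PHGDH and PSAT1 of serine synthesis were at 457 ± 15 and 87.0 ± 5.4 TPM, the transporter chain SLC3A2 at 183 ± 7.4 TPM, and asparagine synthetase ASNS at 135 ± 7.9 TPM. The factors that accompany prolonged stress were lower. DDIT3 (CHOP) had 154, 159 and 144 counts, or 8.14 ± 0.46 TPM, ATF3 had 441, 386 and 350 counts, and TRIB3 had 563, 547 and 536 counts, or 12.5 ± 0.28 TPM. CHAC1, which degrades glutathione, had 197, 192 and 163 counts. The low members were NUPR1 with 39, 43 and 24 counts and the secreted stress factors GDF15, with 17, 9 and 3 counts, and FGF21, with 6, 0 and 10 counts.

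The endoplasmic reticulum list had 20 of 21 members on. Its chaperones were abundant, with calreticulin CALR at 998 ± 40 TPM, HSP90B1 (GRP94) at 479 ± 21 TPM and HSPA5 (BiP) at 287 ± 16 TPM. Its sensors were lower: ATF6 at 20.6 ± 1.9 TPM and ERN1 (IRE1 alpha) at 1.76 ± 0.28 TPM, with 202, 255 and 273 counts. XBP1, the message that IRE1 splices, was at 156 ± 6.2 TPM, and spliced and unspliced forms are not separated in a table of genes. ERN2, the form of IRE1 of gut and airway epithelium, had 4, 5 and 9 counts.

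Cytosolic chaperones were the most abundant stress genes, and 2 of the highest were of the inducible kind. The constitutive HSPA8 (HSC70) stood at 3003, 3232 and 3103 TPM. The heat-inducible HSP70 genes HSPA1B, at 2188, 2173 and 2105 TPM, and HSPA1A, at 1711, 1693 and 1673 TPM, stood above the HSP90 genes HSP90AB1, at 1382 ± 116 TPM, and HSP90AA1, at 1158 ± 39 TPM. Their spread was narrow, with SDs of 2.52% and 2.26% of the mean in CPM. HSPA1A and HSPA1B are near-identical copies and may share reads in the counts. Other heat-inducible genes ranged widely: the small heat shock protein HSPB1 was at 259 ± 32 TPM, the co-chaperone DNAJB1 at 203 ± 4.5 TPM, HSPH1 (HSP110) at 137 ± 13 TPM and BAG3 at 125 ± 2.0 TPM, while HSPA6, another HSP70 gene, had 7, 23 and 18 counts. The 28 genes of the list took 1.55 ± 0.025% of the counts, with 19 on (67.9%), 4 low and 5 off, beside 62.8% of protein-coding genes on. The off members were all small heat shock proteins of muscle or lens, with 0 counts in every library for CRYAB, HSPB2, HSPB3 and HSPB7 and 2 counts in replicate 3 alone for CRYAA. The readthrough symbol HSPB2-C11orf52 was low, and how reads of exons shared with HSPB2 were counted is not stated.

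The promoters of these HSP70 genes are printed because these genes ranked 45 (HSPA1B) and 53 (HSPA1A) per length in cells whose labels name no heat treatment. Capitals mark GAANNTTC, an inverted pair of the GAA unit to which HSF1 binds, and the TATAAA box, as found by a search for those letters. The sequences are RefSeq sequence of GRCh38.p14, written 5′ to 3′ on the strand of the gene, and end at the base before the annotated start.
HSPA1A, chr6:31815433-31815542, + strand: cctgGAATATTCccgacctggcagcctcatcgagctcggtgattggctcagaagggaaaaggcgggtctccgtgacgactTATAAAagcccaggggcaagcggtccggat
HSPA1B, chr6:31827628-31827737, + strand: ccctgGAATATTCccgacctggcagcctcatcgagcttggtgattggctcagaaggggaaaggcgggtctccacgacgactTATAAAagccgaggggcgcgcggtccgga
In an alignment of the 250 bases before each start, 235 were identical. GAANNTTC, which reads the same on both strands, was present in the 250 bases before the start of 9 of 25 matched heat shock genes and of 4.91% of all 16821 matched genes. TATAAA on the strand of the gene, between bases -40 and -16, was present in 5 of those 25 genes and in 3.39% of all matched genes.

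In the oxidative and metal stress list 16 of 24 members were on, or 66.7%, beside 62.8% of protein-coding genes. The peroxidase PRDX1 was at 796 ± 36 TPM, thioredoxin TXN at 490 ± 12 TPM, the autophagy receptor SQSTM1 (p62) at 135 ± 2.9 TPM, and NFE2L2 (NRF2), the transcription factor of this response, at 43.5 ± 2.5 TPM. Its inhibitor KEAP1 was at 67.2 ± 4.0 TPM. HMOX1, haem oxygenase, was on with 2739, 2732 and 2828 counts, while NQO1, a standard NRF2 target, had 213, 159 and 131 counts. Metallothioneins, which bind zinc and copper, were divided: MT2A, MT1X and MT1F were on, at 52.6 ± 4.9, 37.6 ± 5.6 and 7.13 ± 1.9 TPM, MT1A, MT1E, MT1M and MT3 had 0 counts in each library, and MT1G had 2 counts in replicate 3 alone. The aldo-keto reductase AKR1B10 was also at 0.

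In the hypoxia list 13 of 15 members were on, with HIF1A at 61.7 ± 5.8 TPM, the glucose transporter SLC2A1 at 41.7 ± 1.7 TPM and VEGFA at 8.59 ± 0.58 TPM. CA9, a carbonic anhydrase strongly induced by hypoxia, had 0 counts in each library. Of 18 immediate early genes 15 were on, led by JUN at 184 ± 15 TPM and MYC at 156 ± 2.8 TPM, with FOS at 79, 65 and 71 counts. EGR1, a growth factor-induced transcription factor, had 343, 713 and 451 counts, highest in replicate 2, and was among the 10 most variable genes described below.

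**Figure D2:**
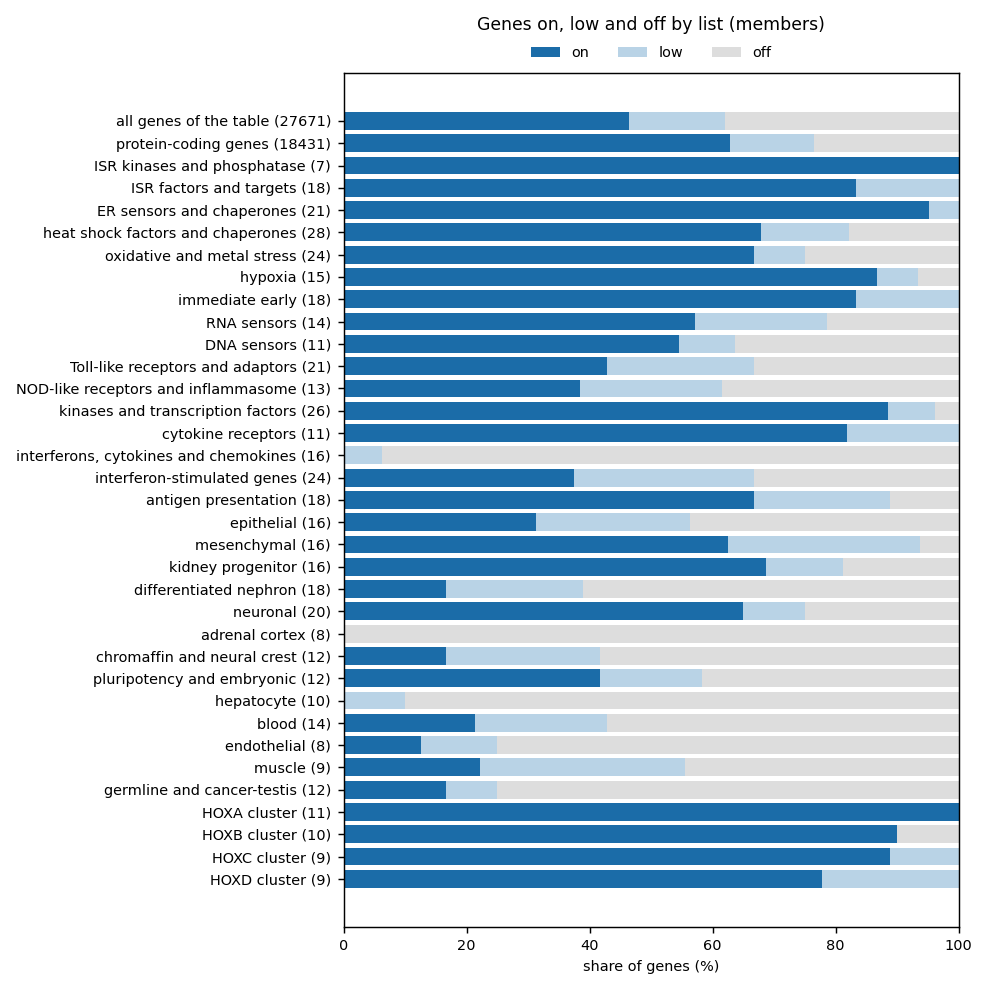
Share of genes on (dark blue), low (light blue) and off (grey) in vehicle HEK293T cells, for all genes, protein-coding genes and the stress, innate and lineage lists reported, with the number of members in brackets. Cytokines, adrenal cortex and hepatocyte lists have no member on, while the kinases of the integrated stress response and the HOXA cluster are on throughout.

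Of the 153 genes of innate sensing, 80 (52.3%) were on, 28 low and 45 off, beside 62.8% of protein-coding genes on. Cytosolic RNA sensing runs from RIG-I (DDX58) and MDA5 (IFIH1), which bind viral RNA, through the mitochondrial adaptor MAVS to the kinase TBK1 and the transcription factor IRF3. DDX58 had 65, 70 and 103 counts, or 2.28 ± 0.60 CPM and 1.04 ± 0.27 TPM, and was on close to the threshold. IFIH1 had 12, 8 and 9 counts and DHX58 (LGP2), the other member of the family, 17, 9 and 9, so both were low. Downstream members were higher: MAVS had 4305, 4470 and 4869 counts and 22.1 ± 1.4 TPM, TBK1 had 943, 861 and 924 counts and 15.9 ± 0.59 TPM, and IRF3 had 3750, 3369 and 3323 counts and 114 ± 6.9 TPM. Of the ubiquitin ligases that act on RIG-I, TRIM25 was at 14.4 ± 1.1 TPM and RNF135 (Riplet) at 10.8 ± 0.25 TPM. ADAR, which edits double-stranded RNA, was at 59.9 ± 5.4 TPM. Of the oligoadenylate synthetase family, OAS3 was low with 18, 28 and 25 counts, OAS1 and OAS2 had 0 counts in each library, and OASL had 3 counts in replicate 1 alone.

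Cytosolic DNA sensing was sparse at its entry. MB21D1, which encodes cGAS, had 0, 2 and 0 counts, and TMEM173, which encodes STING, had 38, 34 and 38 counts, just under the threshold in replicate 2. IFI16 had 2, 3 and 0 counts, and AIM2 and ZBP1 had 0 in each library. The DNA-binding proteins of break repair that are also listed as sensors were abundant, with XRCC6 (Ku70) at 522 ± 35 TPM, XRCC5 (Ku80) at 413 ± 33 TPM and PRKDC, the kinase they recruit, at 88.5 ± 9.1 TPM. SAMHD1 and the nuclease TREX1 were on at 18.0 ± 2.3 and 4.61 ± 0.18 TPM, and the helicase DDX41 at 117 ± 7.6 TPM.

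None of the 10 Toll-like receptor genes was on: 4 were low and 6 off, and TLR2, TLR3, TLR4, TLR7 and TLR8 had 0 counts in every library. LY96 (MD-2), the partner of TLR4, was also at 0. Their signalling partners were present, with IRAK1 at 342 ± 4.3 TPM, UNC93B1 at 17.2 ± 0.47 TPM, TRAF6 at 5.52 ± 0.56 TPM, TRAF3 at 5.19 ± 0.053 TPM with 700 counts in each library, and MYD88 at 2.20 ± 0.20 TPM with 121, 99 and 110 counts. TICAM2 was on with 46, 63 and 51 counts and shares sequence with the readthrough symbol TMED7-TICAM2. In the NOD-like receptor and inflammasome list NLRX1, NOD1, DFNA5 (gasdermin E), NAIP and NLRC5 were on, led by NLRX1 at 16.9 ± 0.45 TPM. NLRP3, the adaptor PYCARD (ASC), CASP1 and CASP4 had 0 counts in each library, and GSDMD had 0, 2 and 0.

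**Figure D3:**
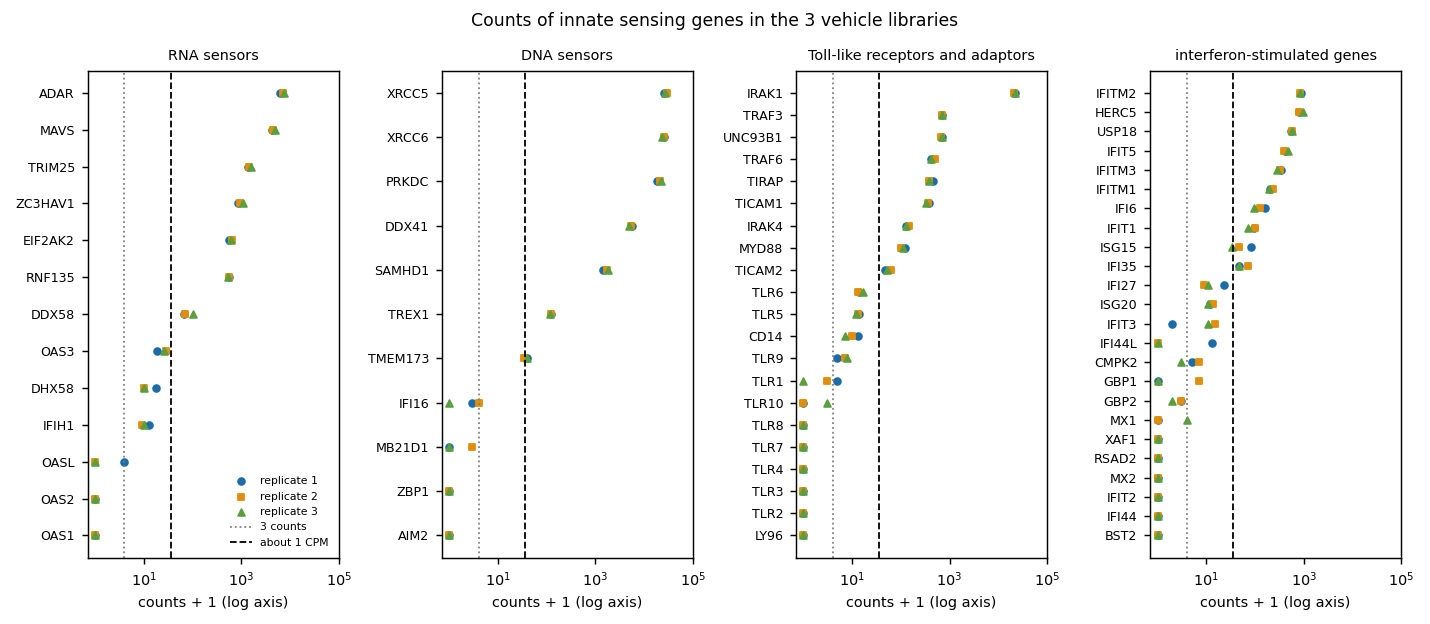
Counts + 1 (log axis) of RNA sensors, DNA sensors, Toll-like receptors with their adaptors, and interferon-stimulated genes, with a point for each of the 3 vehicle libraries. The dotted line marks 3 counts and the dashed line about 1 CPM, and DDX58 lies just to the right of the dashed line while cGAS (MB21D1) and all 10 Toll-like receptor genes lie to its left.

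Kinases and transcription factors of these pathways were mostly present, with 23 of 26 on. The NF-kappaB subunit RELA was at 133 ± 3.0 TPM, its inhibitor NFKBIA at 49.7 ± 3.5 TPM, and the interferon receptor kinases JAK1 and TYK2 at 44.0 ± 1.7 and 45.0 ± 0.87 TPM. STAT2 and IRF9, parts of the factor that interferon activates, were at 7.83 ± 0.76 and 8.41 ± 0.20 TPM. IRF7 had 121, 81 and 67 counts, IRF8 94, 87 and 102, and IRF5 0 in each library. Both chains of the type I interferon receptor were on, IFNAR1 at 11.3 ± 2.1 TPM and IFNAR2 at 9.67 ± 1.5 TPM, as were both chains of the interferon gamma receptor, at 44.5 ± 2.8 TPM for IFNGR1 and 54.0 ± 4.2 TPM for IFNGR2.

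The ligands were not. Of 16 interferons, cytokines and chemokines, none was on, 15 were off and 12 had 0 counts in every library, including IFNB1, TNF, IL1B, CXCL10 and CCL5. IL8 (CXCL8) was the member called low, at 0, 8 and 2 counts. All 21 type I and type III interferon genes of the table were off, and of 44 chemokine genes CXCL16 was on, at 4.32 ± 0.35 TPM.

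The interferon-stimulated genes were divided, with 9 of 24 on, 7 low and 8 off. IFITM2, a membrane protein that blocks viral entry, was highest per length at 55.2 ± 1.5 TPM with 898, 836 and 857 counts. IFITM3 of the same family was at 22.8 ± 2.3 TPM with 349, 333 and 287 counts, and IFITM1 had 200, 235 and 192 counts. The ISG15 ligase HERC5 had 802, 806 and 982 counts and the ISG15 protease USP18 had 556, 565 and 564. ISG15 itself had fewer, with 83, 45 and 32 counts. It was called low by replicate 3 alone, at 0.923 CPM, and stood at 3.86 ± 1.9 TPM. In each library ISG15 was above IFIT1, which was on, per length and below it in counts. IFIT5 had 406, 391 and 476 counts and IFIT1, which binds viral RNA ends, 96, 99 and 71, whereas IFIT2 had 0 in each library and IFIT3 had 1, 14 and 10. BST2 (tetherin), MX2, RSAD2 (viperin), XAF1 and IFI44 had 0 counts in each library, and MX1 had 0, 0 and 3.

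The promoters of IFNB1, off here, and of 3 interferon-stimulated genes are printed. The 3 interferon-stimulated genes hold the same response element and are called on, low and off, with ISG15 low by replicate 3 alone. Capitals mark, in IFNB1, a run of 10 letters of the kind NF-kappaB binds, and TATAAA. In the others they mark GAAA, any 2 bases and GAAA, or the reverse complement, which is the core of the interferon-stimulated response element. The bases are again RefSeq sequence of GRCh38.p14 on the strand of the gene, up to the base before the start.
IFNB1 (off), chr9:21077943-21078052, - strand: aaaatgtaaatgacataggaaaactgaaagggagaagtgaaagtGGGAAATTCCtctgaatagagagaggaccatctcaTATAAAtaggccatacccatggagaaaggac
IFIT1 (on), chr10:89392493-89392622, + strand: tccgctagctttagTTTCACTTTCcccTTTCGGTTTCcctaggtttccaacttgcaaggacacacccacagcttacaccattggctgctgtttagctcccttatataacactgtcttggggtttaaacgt
ISG15 (low), chr1:1013367-1013496, + strand: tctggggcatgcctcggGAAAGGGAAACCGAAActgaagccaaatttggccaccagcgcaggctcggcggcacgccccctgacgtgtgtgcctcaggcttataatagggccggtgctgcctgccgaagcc
BST2 (off), chr19:17405631-17405760, - strand: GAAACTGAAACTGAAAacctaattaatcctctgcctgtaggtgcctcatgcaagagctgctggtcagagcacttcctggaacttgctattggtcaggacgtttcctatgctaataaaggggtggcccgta
In ISG15 and in BST2 the marked runs are 2 overlapping matches. Of 19 interferon-stimulated genes matched to a promoter, 14 held that element on either strand in the 250 bases before the start, against 2.68% of all matched genes. By state, 6 of 7 on, 6 of 7 low and 2 of 5 off genes held it, so the letters occurred in genes of each state. The NF-kappaB letters marked in IFNB1 were found in 0.143% of all matched promoters.

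Antigen presentation was on in 12 of 18 members, or 66.7%, beside 62.8% of protein-coding genes. HLA-C had 10134, 9526 and 8792 counts and 348 ± 24 TPM. HLA-B was lower in each library, at 153, 145 and 133 TPM. The light chain B2M was at 134 ± 5.3 TPM. Of the subunits of the immunoproteasome, PSMB10 was on at 36.1 ± 6.9 TPM, PSMB9 was low with 23, 19 and 14 counts and PSMB8 had 0, 2 and 0. CIITA, the activator of class II genes, had 0 counts in each library, and HLA-DPA1 was nevertheless on with 184, 179 and 203 counts.

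Lineage genes had 91 of 209 members on (43.5%), among them 35 of the 39 HOX genes. Of all protein-coding genes 62.8% were on. HEK293 cells came from embryonic kidney, and kidney, adrenal and neuronal features have all been ascribed to the line, so the lists cover each. The kidney progenitor list had 11 of 16 members on (68.8%), 2 low and 3 off, near the share of protein-coding genes on. CITED1, a transcriptional coactivator of the nephron progenitor, was highest with 13940, 12826 and 13700 counts and 625 ± 21 TPM. HOXD11 followed at 151 ± 2.5 TPM, the progenitor factor SIX2 had 1672, 1498 and 1621 counts and 41.3 ± 1.9 TPM, and SALL1 was at 29.8 ± 2.1 TPM. GATA3 of the ureteric duct was at 25.8 ± 2.3 TPM, and WT1 had 463, 432 and 500 counts. PAX2, needed throughout the early kidney, was on near the threshold with 75, 56 and 66 counts. Its relative PAX8 had 0 counts in each library, and GDNF, the ligand of RET, had 0, 3 and 0 while RET had 128, 156 and 140.

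Markers of the differentiated nephron were mostly off, with 3 of 18 on and 11 off. The on members were PODXL, a surface protein of podocytes and of several embryonic cells, at 30.3 ± 2.5 TPM, the proton pump subunit ATP6V1B1 at 2.32 ± 0.27 TPM and the endocytic receptor LRP2 (megalin) at 1.30 ± 0.14 TPM. The transporters SLC34A1, SLC22A6, SLC22A8, SLC12A1 and SLC12A3, the water channel AQP2 and UMOD had 0 counts in each library, and NPHS1 had 3 counts in replicate 1 alone.

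Neuronal markers were on in 13 of 20 cases, or 65%, near the 62.8% of protein-coding genes that were on. The ubiquitin hydrolase UCHL1 was highest at 258 ± 9.7 TPM, followed by the neurofilament chains NEFL at 36.8 ± 0.63 TPM with 2689, 2629 and 2591 counts and NEFM at 31.7 ± 1.7 TPM with 2325, 2280 and 2100 counts. TUBB3 was at 17.9 ± 1.7 TPM, the intermediate filament INA at 13.1 ± 0.54 TPM and the stem cell factor SOX2 at 9.78 ± 0.61 TPM. The heavy neurofilament chain NEFH was low with 14, 8 and 9 counts. DCX and ELAVL3 had 0 counts in each library, ELAVL4 had 1 in each, and SNAP25, part of the machinery of synaptic release, had 2 in each.

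None of the 8 adrenal cortex genes was on. NR5A1, the factor that specifies the cortex, and the steroid enzymes CYP11A1 and CYP11B1 had 0 counts in each library. Of 12 chromaffin and neural crest genes HAND2 and CHGA were on, with 144, 107 and 89 and with 57, 81 and 35 counts. PHOX2A, DBH and SOX10 were at 0, and TH, the entry enzyme of catecholamine synthesis, had 0, 1 and 0.

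The mesenchymal list had 10 of 16 members on, 5 low and 1 off, or 62.5% on, beside 62.8% of protein-coding genes. The epithelial list had 5 of 16 on, 4 low and 7 off. Vimentin (VIM) had 24165, 24102 and 22916 counts and 634 ± 21 TPM. N-cadherin (CDH2) was at 39.6 ± 2.5 TPM and E-cadherin (CDH1) at 0.923 ± 0.30 TPM, with 73, 106 and 58 counts. The factors that repress E-cadherin were on, SNAI2 at 34.5 ± 3.8 TPM, ZEB1 at 10.2 ± 1.9 TPM and ZEB2 at 4.99 ± 0.79 TPM. The simple-epithelium keratins KRT18 and KRT8 were on at 63.4 ± 7.9 and 32.2 ± 0.72 TPM, while KRT19, KRT5, KRT14 and the epithelial splicing factor ESRP1 had 0 counts in each library. Of 55 keratin genes 4 were on. The junction genes TJP1 and OCLN were on at 26.8 ± 3.7 and 1.89 ± 0.32 TPM. EPCAM was low with 29, 16 and 23 counts. The low mesenchymal members were CDH11, COL3A1, PDGFRA, PDGFRB and THY1. Of the fibrillar collagens COL1A1 was on at 5.80 ± 0.58 TPM and COL1A2, the other chain of the same protein, had 0 counts in each library.

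**Figure D4:**
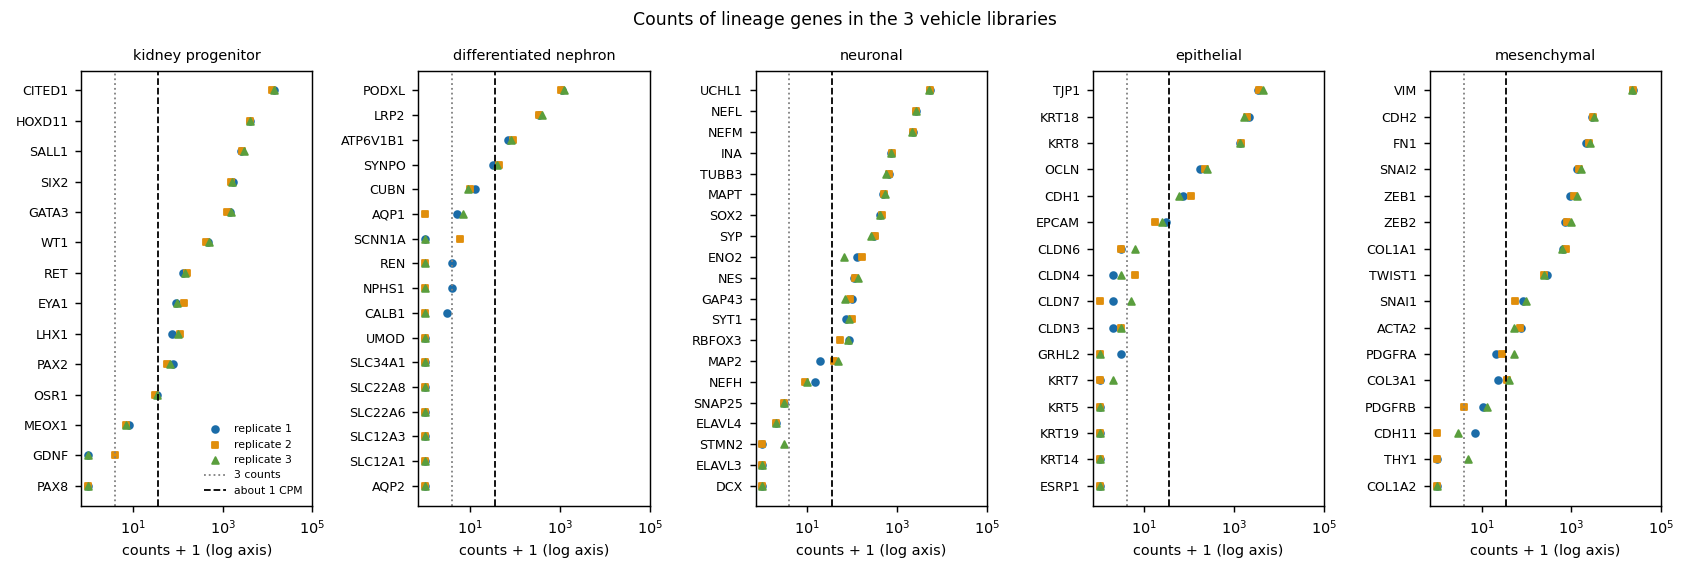
Counts + 1 (log axis) of kidney progenitor, differentiated nephron, neuronal, epithelial and mesenchymal genes, with a point for each of the 3 vehicle libraries, the dotted line at 3 counts and the dashed line at about 1 CPM. VIM and CITED1 lie farthest right, and SLC34A1, UMOD, PAX8, DCX, KRT19 and COL1A2 lie at 0.

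HOX genes set position along the body axis, and most were on: 11 of 11 in the HOXA cluster, 9 of 10 in HOXB, 8 of 9 in HOXC and 7 of 9 in HOXD. The highest per length were HOXD11 at 151 ± 2.5 TPM, HOXA9 at 111 ± 1.9 TPM, HOXA5 at 88.1 ± 6.0 TPM and HOXD13 at 85.0 ± 4.2 TPM, and members from the first to the last paralogue group were on. The exceptions were HOXB1, which was off, and HOXC12, HOXD1 and HOXD12, which were low. HOXA9 overlaps the symbol HOXA10-HOXA9, which had 2558, 2564 and 2766 counts of its own.

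Of 12 pluripotency and embryonic genes, the RNA-binding proteins IGF2BP1, IGF2BP3 and LIN28B, the DNA methyltransferase DNMT3B and the chromatin protein HMGA2 were on, led by IGF2BP1 at 26.2 ± 0.96 TPM. NANOG, ZFP42, DPPA4 and TDGF1 had 0 counts in each library, POU5F1 (OCT4) had 3, 2 and 11, and LIN28A had 0, 2 and 0 against 436, 475 and 483 for LIN28B. The 7 lists of cell types other than those of kidney, neuron, epithelium and mesenchyme (adrenal cortex, chromaffin, hepatocyte, blood, endothelium, muscle and germline) had 10 of 73 members on and 51 off. The highest was NKX2-5, a cardiac homeobox factor, with 2919, 2857 and 2711 counts and 94.4 ± 3.6 TPM, in cells in which the cardiac structural genes MYH7 and TNNT2 were off. The cancer-testis genes PRAME and MAGEA3 were on at 52.2 ± 3.6 and 51.9 ± 0.18 TPM, and MAGEA3 may share reads with its near copy MAGEA6. HAND2, CHGA, ACTA1 of muscle, ESAM of endothelium and RUNX1, CD68 and HBA1 of blood were the other on members, none above 6.81 CPM. Albumin (ALB), PTPRC (CD45), HBB and PECAM1 had 0 counts in each library.

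Some gene families had no member on and some were on throughout. Olfactory receptors had 0 of 374 on, keratin-associated proteins 0 of 93, defensins 0 of 43 and taste receptors 0 of 27, and of these 4 olfactory receptors, 3 keratin-associated proteins and 5 taste receptors were low. At the other end, all 76 mitochondrial ribosomal proteins, all 37 nuclear subunits of complex I and all 8 subunits of the CCT chaperonin were on, with medians of 114, 171 and 434 TPM. Between them stood potassium channels with 27 of 103 on (26.2%) and cytochromes P450 with 14 of 55 (25.5%). Solute carriers had 207 of 365 on (56.7%) and zinc finger genes named ZNF 363 of 507 (71.6%), beside 62.8% of protein-coding genes. The highest zinc finger gene was ZNF503, at 543 ± 19 TPM.

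The base composition of promoters went with the state of the gene. Promoter sequence from RefSeq (GRCh38.p14, 250 bases before the start) was matched for 14682 protein-coding genes. The 9580 that were on had a median of 22 CpG dinucleotides and 65.6% G and C. The 1855 that were low had a median of 11 CpG, and the 3247 that were off had 3 CpG and 50.8% G and C. TATAAA between bases -40 and -16 was present in 1.32% of on, 4.20% of low and 9.45% of off promoters. These are descriptions over genes, which share sequence and neighbourhood and are not replicates. The 958 on genes with the highest levels had a median of 23 CpG and the 958 with the lowest levels 19.

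Replicates were close to each other. Over the 14428 genes with at least 10 counts in each library, the log2 CPM of the libraries correlated across genes with r = 0.996 for replicates 1 and 2, 0.994 for 1 and 3, and 0.996 for 2 and 3, where genes are not independent points. A difference of over 2-fold was seen for 16, 22 and 18 genes in these pairs, and of over 1.5-fold for 254, 405 and 251. The common biological coefficient of variation, the spread beyond counting noise that edgeR estimates, was 0.0872. No library was a copy of another, since chi-square values per degree of freedom against counting noise were 9.25, 24.9 and 19.8. The median coefficient of variation in CPM was 16.5% for genes of 1 to 3 CPM, where counting alone gives 12.6%. It was 4.81% for genes of 300 to 1000 CPM, and was 7.33% for the 93 genes above 1000 CPM, where counting alone gives 0.399%.

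The differences between replicates went with transcript length. The Spearman correlation across genes of the log2 ratio with the length of the longest transcript was 0.29 for replicate 2 over 1, 0.47 for replicate 3 over 1 and 0.34 for replicate 3 over 2. For replicate 3 over 1 the median log2 ratio was -0.15 for the 2732 genes with the shortest transcripts, up to 1915 bases, and 0.18 for the 2736 with the longest, from 5754 bases. The 15 mitochondrial genes of messenger and ribosomal RNA, all under 1915 bases, went against this trend and were highest in replicate 3. The mitochondrial tRNA gene TRNS1 was lowest in replicate 3, with 954, 555 and 482 counts. With the median length of a gene's transcripts in place of the longest, the correlations were 0.18, 0.31 and 0.24. What set the trend was not tested.

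**Figure D5:**
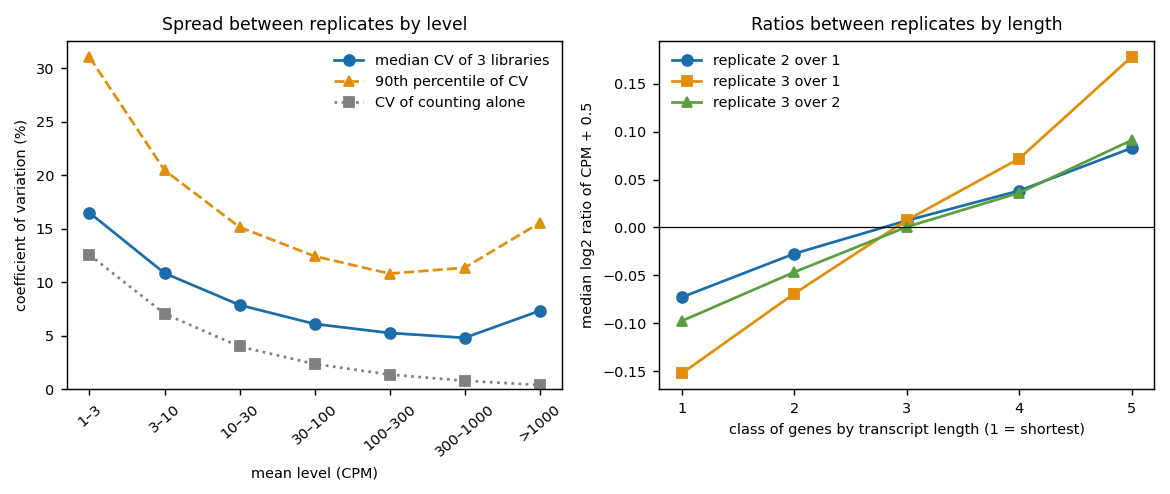
Left, the median and 90th percentile of the coefficient of variation (%) over the 3 vehicle libraries by mean CPM, with the value that counting alone gives. Right, the median log2 ratio of CPM + 0.5 between pairs of libraries in 5 classes of genes by transcript length, which runs from -0.15 to 0.18 for replicate 3 over replicate 1.

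Among genes of at least 10 CPM on average, ordered by the gene-wise coefficient that edgeR shrinks towards the common value, RN7SL2, an RNA of the signal recognition particle that lacks a long poly(A) tail, varied most, with 169, 130 and 936 counts. Its copy RN7SL1 had 171, 111 and 440. The readthrough symbols ATP6V1G2-DDX39B, with 5213, 1129 and 5067 counts, and PMF1-BGLAP, with 247, 1144 and 900, came next. Also among the 10 were PPAN-P2RY11 with 924, 891 and 476 counts and PMF1 with 2308, 1469 and 1186. The mitochondrial tRNA gene TRNS1 had 954, 555 and 482 counts, and the rest of the 10 were EGR1, TMTC3, USP37 and N4BP2. TMTC3, USP37 and N4BP2 have long transcripts, and each was lowest in replicate 1 and highest in replicate 3. The smallest values of that coefficient, which shrinkage holds near the common value, were those of SND1 with 10068, 10220 and 9964 counts, GART, EDC4, CDC42EP1 and SYMPK.

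Overlapping symbols bear on several levels above. MIF, the gene of a cytokine-like protein, had 0 counts in each library while LOC284889, an antisense gene whose RefSeq span overlaps it, had 74898, 73269 and 62982. EIF4A1, a core translation factor, had 222, 244 and 224 counts while the readthrough symbol SENP3-EIF4A1 had 48585, 51708 and 45701, and NME2 had 15, 0 and 0 while NME1-NME2 had 43263, 40710 and 34905. How the counting assigned reads of shared exons, or of both strands, is not stated, so the counts of these symbols may not give the levels of their transcripts. Of 114 readthrough symbols with both partners in the table, 72 were on, beside 46.4% of all symbols and 62.8% of protein-coding genes. Of those 72, 38 stood above both partners in counts.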

How the data were processed

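Polyadenylated RNA of 11 HEK293T samples was sequenced as strand-specific dUTP libraries on a DNBSEQ platform, per the labels' protocols, and the 3 vehicle libraries were used. The authors deposited whole-number counts per gene symbol. The genome build GRCh37 and the tools DESeq and DESeq2 are named per the submitters' processing notes, while for the aligner, counter and strand setting the sources used here give nothing. The 8 count columns of the other groups and the authors' deposited results tables were not used.

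CPM were TMM-scaled over the 3 libraries with edgeR 4.0.16 in R 4.3.3. TPM used the longest transcript of each gene in GENCODE 29 (lengths only), which gave 86.1% of symbols and 99.1% of counts a length. Dispersion was estimated over genes with at least 10 counts in each library and tested on simulated data. Promoters came from RefSeq (GRCh38.p14), with 16821 genes matched by symbol. Gene lists (39, with 594 genes) and members were chosen with earlier results of these data known. Genes named are the 25 highest in counts and per length, the 10 most and 5 least variable at 10 CPM or more, the leading on members of each list and its defining off members, and others were named after their values were seen. Not all of their values are printed, and some genes and 1 list are not reported here. Alternatives were other scalings and thresholds, transcript lengths, filters and each replicate left out.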

Additional observations from a re-analysis of the deposited data

How the results depend on the processing

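In all, 91 recomputed values stayed within 1.5 times the value reported for counts of genes, or within 1 SD for other values, and 5 did not. Some of the 91 could not change. Counts and promoters of off genes were fixed when the CPM threshold alone changed, and counts of on genes when the off threshold alone changed. The number of genes called low was 6932 with on set at 5 CPM, 6615 with off set at 0 counts and 2509 with off set at 10 counts. With the mitochondrial genes left out of the total, 851 genes held 50% of the counts. The common biological coefficient of variation ranged from 0.0710 without replicate 3 to 0.1093 without replicate 2. With the median transcript length in place of the longest, 20 of the 25 highest genes per length were shared. The counts of innate, stress and lineage genes on were 56, 104 and 67 at 5 CPM and 83, 122 and 98 at 0.5 CPM. No paired analysis was possible because 1 group was described. Depth limits what can be said of genes at 0, which by counting error alone may lie anywhere under 0.0866 CPM. That bound does not cover reads counted under an overlapping symbol, as may be the case for MIF beside LOC284889.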

Other observations

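A few symbols changed between presence and absence among the replicates: 5 had 0 counts in 1 library and at least 100 in another. SPATA21 had 504, 479 and 0 counts in replicates 1, 2 and 3, P2RY11 had 0, 0 and 433, MIA-RAB4B had 235, 0 and 195, ARPC4-TTLL3 had 0, 164 and 0, and IQCJ-SCHIP1 had 0, 119 and 57. Of these, 3 are readthrough symbols that share exons with their partners, and P2RY11 is a partner in another. There were 612 genes that reached 1 CPM in some of the 3 libraries and not in all.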
